A study of Mus musculus with 8 samples.

Results

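The cells described here were single bone marrow cells in which none of 8 RNAs of proliferating cells was detected. A well was a member if it held at least 3000 gene counts and 500 genes and had raw counts of 0 for Mki67, Top2a, Ube2c, Ccnb1, Ccnb2, Cdk1, Rrm2 and Birc5. The members were thus chosen by the counts of these 8 genes, and the 8 are described below without a test. By this rule 154 of 2685 wells were members (5.74%), and they were compared with the other 2531 wells of the same plates. The study sorted single blood stem and progenitor cells of mouse marrow into 8 plates and sequenced them by CEL-seq2, a method that copies the 3' end of polyadenylated RNA with a barcode for each well. Fluorescence was recorded for the cells as they were sorted, but 23 of the 2685 kept wells, 4 of them members, had no sort record. The count tables held 383 wells per plate, and the same 383 well barcodes were used on every plate.

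All 8 plates held the same kind of sample. Per the labels they came from Dach1-GFP reporter mice on a C57BL/6 background, 8 to 16 weeks old and untreated, whose Dach1 allele carries a biotin tag and an IRES-GFP cassette behind the coding sequence. The line goes back to a single targeted embryonic stem cell clone, and the labels also list C57BL/6, C57BL/6 Pep3b and Cas9-Tg mice without tying them to plates. Plates LCE409, LCE407, LCE408 and LCE410 are called the LCE plates (replicates 5 to 8), and plates LC187, LC188, LC189 and LC190 the LC plates (replicates 1 to 4). Which animals filled a plate is not stated, and p-values here therefore reflect plate-to-plate spread alone, part of which may be technical.

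LSK cells are marrow cells that carry Sca1 and the receptor cKit and lack markers of mature lineages, and they include blood stem cells and multipotent progenitors. Stem cells of adult marrow are known to rest for long times outside the cell cycle, while progenitors divide often. A dividing cell makes RNA for DNA synthesis and for histones in S phase and RNA for the spindle and cyclins in G2 and M phase, and resting cells keep these genes repressed. Each of the 8 genes of the rule belongs to such a programme. Mki67 encodes a coat protein of mitotic chromosomes, Top2a a topoisomerase, Ube2c a ubiquitin carrier of the anaphase-promoting complex, and Ccnb1 and Ccnb2 B-type cyclins. Cdk1 encodes the mitotic kinase, Rrm2 the small subunit of ribonucleotide reductase, and Birc5 survivin, a chromosomal passenger.

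The sequences before the start sites of these genes are shown because the 8 RNAs chose the members and are known to be made together. The CCAAT box and the cell cycle homology region are elements described in such promoters, and they were searched as CCAAT or ATTGG and as TTTGAA or TTCAAA, so on both strands, in the 250 bases before each start site. The motifs do not overlap one another in these sequences as printed. Capitals mark these matches in the 150 bases before the start, from RefSeq (build GRCm38.p6), in the direction of transcription. Cdk1 lies on the minus strand at chr10:69352913-69353062, Top2a on the minus strand at chr11:99024190-99024339, and Ube2c on the plus strand at chr2:164769779-164769928. Kif11, a kinesin motor of the spindle that was not used by the rule, lies on the plus strand at chr19:37376232-37376381.
Cdk1: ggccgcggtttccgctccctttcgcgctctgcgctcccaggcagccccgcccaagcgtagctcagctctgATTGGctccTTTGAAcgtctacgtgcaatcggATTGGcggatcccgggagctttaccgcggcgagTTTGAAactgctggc
Top2a: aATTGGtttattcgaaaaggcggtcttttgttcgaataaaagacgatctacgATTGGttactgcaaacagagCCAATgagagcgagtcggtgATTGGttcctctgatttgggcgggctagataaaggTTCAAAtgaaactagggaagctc
Ube2c: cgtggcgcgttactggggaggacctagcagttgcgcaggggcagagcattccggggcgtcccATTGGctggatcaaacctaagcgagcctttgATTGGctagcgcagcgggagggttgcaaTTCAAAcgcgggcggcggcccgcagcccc
Kif11: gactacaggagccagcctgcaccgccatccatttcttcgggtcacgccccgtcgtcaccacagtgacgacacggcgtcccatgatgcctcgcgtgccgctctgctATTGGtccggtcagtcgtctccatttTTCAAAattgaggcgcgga

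In the 250-base windows, 7 of the 8 rule genes held a CCAAT box, 6 held at least 2, and 5 held the TTTGAA element. Of all 32851 promoters in the table, 33.8% held a CCAAT box, 9.91% at least 2, and 16.0% the TTTGAA element. Of 30 other G2 and M phase genes, 25 matched a promoter, and 21 of these held a CCAAT box and 7 the TTTGAA element. Of 28 S phase genes, 25 matched, 15 with a CCAAT box and 3 with the TTTGAA element. A match is a description of the letters and not evidence of binding.

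Nearly all members came from the LCE plates. These plates held 148 members of 1324 wells (11.2%), and the LC plates 6 of 1361 (0.441%). On single LCE plates the shares were 4.82% on LCE409, 12.1% on LCE407, 19.6% on LCE408 and 8.38% on LCE410, and the LC plates held 1 or 2 members each. The LCE plates were also shallower, with a median of 6369.5 counts per kept well, against 12461 on the LC plates, and members had fewer counts than other wells of their plate. On the LCE plates the median was 5184 counts in members and 6597 counts in other wells. Mitochondrially encoded genes made 4.29 to 4.69% of counts in members and 4.06 to 4.39% in other wells of the LCE plates (medians per plate).

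Thinning every kept well to 3000 counts gave all wells the same depth. Then 500 wells had 0 counts of the 8 genes (18.6%), all 154 members by raw counts among them. The shares were 22%, 28.7%, 40.1% and 24.3% on LCE409, LCE407, LCE408 and LCE410, against 5.87%, 9.41%, 9.44% and 10.6% on LC187, LC188, LC189 and LC190. The sets did not overlap. The mean was 28.8 ± 8.04% on the LCE plates and 8.82 ± 2.04% on the LC plates (SD, n = 4 each), a difference of 19.9 points with a two-sided exact permutation p = 0.0286, the smallest that 4 plates against 4 can give. Summed over all kept wells, the 8 genes made 702 ± 95 CPM (counts scaled to the total of each sum) on the LCE plates and 1306 ± 78.9 CPM on the LC plates (SD, n = 4 each, exact permutation p = 0.0286). The 30 other G2 and M phase genes made 1395 CPM on the LCE and 2370 CPM on the LC plates, and the S phase genes 2482 and 3394 CPM in the same order, each with exact permutation p = 0.0286 (n = 4 each). What differs between the sets beside the plate names is not given in the labels, so cells, sort and chemistry cannot be told apart here.

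**Figure D1:**
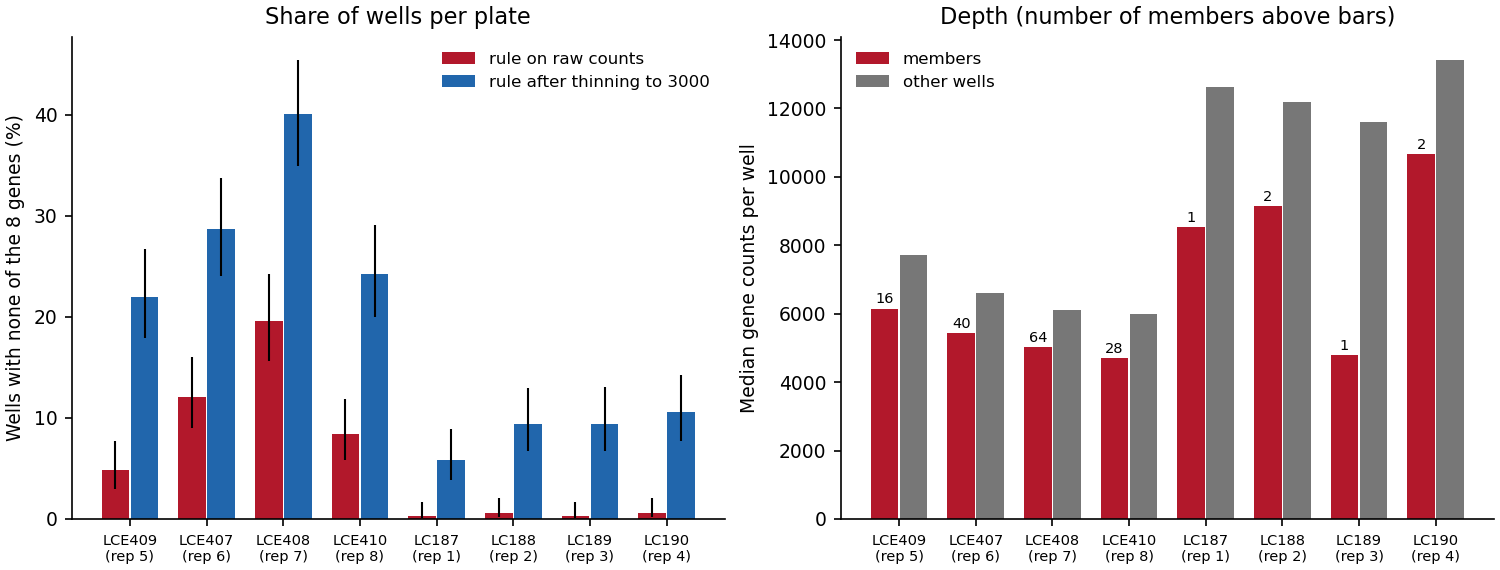
Left, share of kept wells (%) with none of the 8 genes on each plate, by raw counts and after thinning to 3000 counts, with 95% Wilson intervals that cover counting error only. Right, median gene counts per well in members and other wells, with the number of members above the bars. After thinning, the LCE plates lie between 22% and 40.1% and the LC plates between 5.87% and 10.6%.

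On the LCE plates 276 wells held a single count of the 8 genes and so lay just outside, next to 148 members and 900 wells with 2 or more counts. Hist1h2ap, an H2A histone gene, was at 355 CPM in members, 408.8 CPM in wells with a single count and 2039 CPM in the rest. Txnip was at 448, 414 and 291 CPM in the same order, Mecom at 61.9, 34.0 and 36.3 CPM and Flt3 at 309, 244 and 236 CPM. The other G2 and M phase genes summed to 722, 740 and 1635 CPM.

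The label, cells with no proliferation RNA, holds only for the 8 genes. After thinning, 132 of 148 LCE members (89.2%, 95% Wilson interval 83.2 to 93.2%) held at least 1 count of the 30 other G2 and M phase genes, and so did 90.6% of the other LCE wells. In raw counts only 3 of the 148 members were at 0 for all 30. At least 1 of the 28 S phase genes was detected in 97.3% of members after thinning. The cells are therefore called members, not resting cells. Both gate markers were present in them, with Kit at 261 ± 68.8 CPM in members and 239 ± 33.1 CPM in other wells of the LCE plates, and Ly6a, the gene of Sca1, at 72.0 ± 30.4 and 66.8 ± 10.5 CPM (SD, n = 4).

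Of 9411 genes tested on all 8 plates, 59 passed (0.627%), 54 lower in members (0.574%) and 5 higher (0.0531%), by edgeR's quasi-likelihood test with the plate as a block and a Benjamini-Hochberg adjusted p under 0.05. The 8 rule genes were left out of the test. The median log2 difference of all tested genes was -0.14 (-0.01 with library sizes alone, -0.20 with DESeq2 size factors), and values below are relative to 0. The 6 LC members make the LC sums shallow. On the LCE plates 96 of 9835 genes passed (0.976%), 80 lower (0.813%) and 16 higher (0.163%), and 47 of the 59 pooled calls were among them with the same sign. With members chosen after thinning, 292 of 9939 genes passed (2.94%), 193 lower (1.94%) and 99 higher (0.996%), and they included 46 of the 59. Thinned counts set membership in this fit, but raw counts were summed. With thinned counts summed as well, 68 of 7100 genes passed, 58 lower and 10 higher. CPM and log2 differences given below as after thinning come from raw counts summed, unless stated otherwise. Without LCE407, LCE408 or LCE410 the 59 calls became 33, 36 and 35. The other cell cycle genes below share their wells and depth with the 8 genes that chose the members, and their level is a measurement beside the rule rather than an independent one.

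H2A histone genes were far lower in members. They encode a core protein of the nucleosome and are transcribed in S phase. Of 16 tested H2A genes of the histone clusters (symbols that begin with Hist) 12 were lower in members, none was higher, and the median log2 difference was -2.71, against -0.14 for all tested genes. Together the H2A genes made 1573, 1447, 888 and 1199 CPM in members of LCE409, LCE407, LCE408 and LCE410, against 6295, 7544, 7183 and 8449 CPM in the other wells. All 4 plates were far lower in members with no overlap. On the LC plates the sums were 1396 CPM in the 6 members and 5945 CPM in the other wells.

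Among them, Hist1h2ap was at 449, 419, 283 and 363 CPM in members of LCE409, LCE407, LCE408 and LCE410, against 1398, 1958, 1814 and 1868 CPM in other wells. The difference was -2.38 ± 0.23 on the log2 scale (SE, edgeR adjusted p = 2.9e-21) and -2.32 ± 0.08 on the LCE plates alone. Hist1h2ao differed by -2.96 ± 0.29 (edgeR adjusted p = 9.9e-22) and Hist1h2ag by -2.87 ± 0.26 (edgeR adjusted p = 2.1e-23). Hist1h2an, Hist1h2ah, Hist1h2aj, Hist1h2ae, Hist1h2ac, Hist1h2af, Hist1h2ak, Hist1h2ai and Hist2h2ac also fell, with log2 differences between -3.82 and -2.37. The lowest of these, Hist1h2ai, had 1 count in all LCE members together and did not pass on the LCE plates alone (edgeR adjusted p = 0.059). These genes are near-identical copies whose counts may be shared, so their values are not independent of one another. Other histone genes were mostly below testing depth or did not pass. None of 4 tested H2B, 3 H1 and 1 H4 genes passed, and the tested ones had medians of -0.78, -0.58 and -1.60. The H2B, H1, H3 and H4 genes summed to 56.8, 41.7, 16.4 and 26.5 CPM in LCE members. In other LCE wells they made 113, 73.7, 38.9 and 69.2 CPM, against 7294 CPM for H2A. Whether the drop is particular to H2A was not tested.

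After thinning, 15 of the 16 tested H2A genes were lower in members (median -2.0), and so were 1 of 4 tested H1 genes, Hist1h1e (-0.68 ± 0.17), and the 1 tested H4 gene, Hist1h4i (-0.85 ± 0.22), but none of 3 H2B genes. The difference of Hist1h2ap was then -1.84 ± 0.08 and was -2.37 on the LCE and -1.33 on the LC plates, and the difference between the sets passed (edgeR adjusted p = 6.7e-11), as for 14 of 9939 genes (0.141%). H2afx, whose protein marks DNA breaks, was at 80.7 ± 26.5 CPM in members and 166 ± 24.2 CPM in other wells of the LCE plates (SD, n = 4), with a log2 difference of -1.44 ± 0.27 over all plates (edgeR adjusted p = 6.3e-05). H2afz, a variant H2A, differed by -0.96 ± 0.23 (edgeR adjusted p = 0.0080).

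G2 and M phase genes outside the rule were lower in members as a whole. Of 30 tested, 8 were called lower and none higher, all 30 had a negative log2 difference, and their median was -1.25. After thinning 28 of the 30 were called lower (median -1.09). Kif11, whose promoter is shown above, was at 9.77, 13.8, 2.91 and 15.5 CPM in members of LCE409, LCE407, LCE408 and LCE410, against 35.7, 43.0, 32.9 and 39.8 CPM in other wells. Members were lower on all 4 plates without overlap, with a log2 difference of -2.38 ± 0.51 (edgeR adjusted p = 0.0012) over the 8 plates. Ccna2, which encodes cyclin A2, was at 0, 13.8, 11.7 and 23.2 CPM in members, against 68.7, 61.0, 38 and 52.4 CPM in other wells, a log2 difference of -2.18 ± 0.44 (edgeR adjusted p = 0.00029). Hmgb2, a chromatin protein on the same list, was at 121 ± 37.2 CPM in members and 295 ± 28.2 CPM in other wells of the LCE plates (SD, n = 4), with a log2 difference of -1.45 ± 0.25 (edgeR adjusted p = 2.5e-06).

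The other G2 and M phase genes called lower were Hmmr (-2.01), Ckap2l (-2.01), Cks2 (-1.96), Tpx2 (-1.97) and Nusap1 (-1.83), which bind the spindle or the cyclin-dependent kinases. Hmmr and Nusap1 did not pass on the LCE plates alone (edgeR adjusted p = 0.22 and 0.12). Outside the lists, Pbk, a mitotic kinase, and Sgo1, which guards sister chromatid cohesion, were lower on 8 of 8 plates (edgeR adjusted p = 0.00017 and 0.011), and Sgo1 did not pass on the LCE plates alone (edgeR adjusted p = 0.062). Pbk had 1 count in all LCE members together and 196 counts in other LCE wells, a ratio of CPM of 0.0546 with an exact 95% Poisson interval of 0.00138 to 0.304. For Sgo1 it was 2 counts in members and 162 counts in other wells, a ratio of 0.132 (0.0160 to 0.477). Gm44521 had 0 counts in LCE members and 216 counts in other LCE wells. It is a processed pseudogene that is 98.6% identical to Mki67 over 216 bases, so its low counts carry no information beyond the rule.

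S phase genes showed smaller differences. All 28 tested had a negative log2 difference (median -0.83), 4 were called lower, and 9 were called lower on the LCE plates alone. Tk1, which encodes thymidine kinase, was at 23.2 ± 6.45 CPM in members and 59.0 ± 8.33 CPM in other wells of the LCE plates (SD, n = 4), with a log2 difference of -1.63 ± 0.38 (edgeR adjusted p = 0.0062) over the 8 plates. Uhrf1, a reader of hemimethylated DNA, Dut, which removes dUTP, and Pcna, the sliding clamp, differed by -1.31 ± 0.35, -1.18 ± 0.28 and -0.85 ± 0.23. With membership set after thinning only 5 of the 28 passed (median -0.18), and Pcna differed by -0.16 ± 0.05 with an edgeR adjusted p of 0.082.

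**Figure D2:**
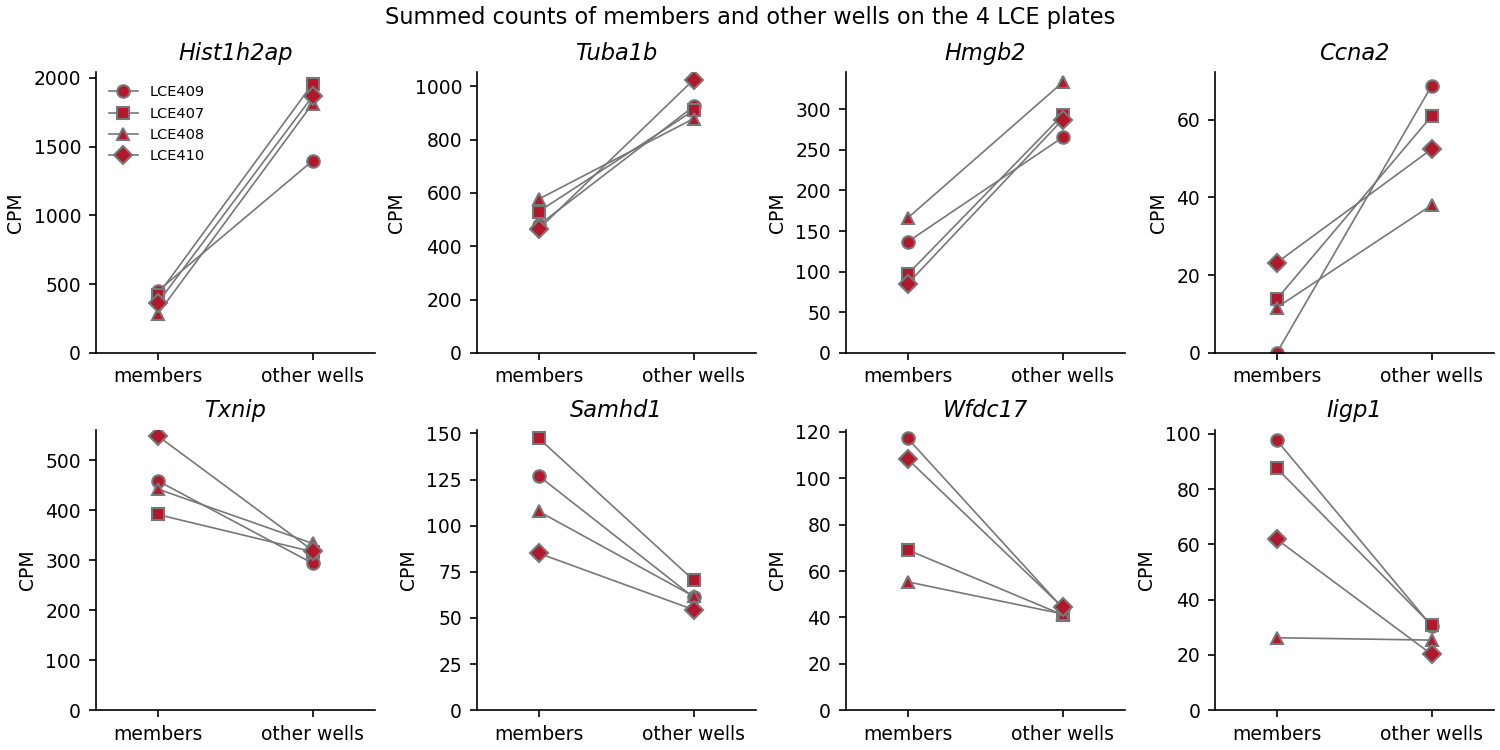
CPM of 8 genes in members and in other wells of each LCE plate, each line 1 plate, CPM from summed counts. Hist1h2ap, Tuba1b, Hmgb2 and Ccna2 lie lower in members on all 4 plates, and Txnip, Samhd1, Wfdc17 and Iigp1 higher on all 4.

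2 tubulin genes were also called lower. Tuba1b was at 479, 530, 577 and 464 CPM in members of LCE409, LCE407, LCE408 and LCE410, against 925, 910, 879 and 1025 CPM in other wells, a log2 difference of -0.92 ± 0.22 over the 8 plates (edgeR adjusted p = 0.0062). The LCE groups did not overlap, and members were lower on 7 of 8 plates. Tubb5 differed by -0.84 ± 0.22 (edgeR adjusted p = 0.027). Calr, a calcium-binding chaperone, differed by -0.82 ± 0.22 over 8 plates (edgeR adjusted p = 0.042), but by -0.34 on the LCE plates alone (edgeR adjusted p = 0.37). Hba-a2, an alpha globin gene of red cells, was at 13.3 ± 11 CPM in members and 35.0 ± 34.4 CPM in other wells of the LCE plates (SD, n = 4), a log2 difference of -1.92 ± 0.48 over 8 plates (edgeR adjusted p = 0.017), and -0.85 ± 0.31 with membership after thinning, which did not pass (edgeR adjusted p = 0.15).

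Genes higher in members were few. Over 8 plates these were Iigp1, Fos, Itgb7, an integrin subunit (log2 difference 1.33), Rtl5 (1.46) and Zfp873 (1.41). Of these 5, Iigp1 was called on the LCE plates alone, Itgb7, Rtl5 and Zfp873 were not (edgeR adjusted p = 0.062, 0.26 and 0.66), and Fos was not tested there. Zfp873 had 8 counts in the LC members, 6 of them in 1 well. Fos, an immediate early gene, had 0 counts in the LCE members and 14 in the LC members, 5 of them in the leading well, so its log2 difference of 2.17 ± 0.51 rests on LC wells. Iigp1, an interferon-induced GTPase, was at 97.7, 87.6, 26.2 and 61.9 CPM in members of LCE409, LCE407, LCE408 and LCE410, against 30.4, 30.7, 25.4 and 20.2 CPM in other wells, a log2 difference of 1.14 ± 0.30 (edgeR adjusted p = 0.032). On LCE408 the levels were close. Iigp1 did not pass after thinning (0.48 ± 0.22, edgeR adjusted p = 0.33). Neither did Fos, Itgb7, Rtl5 and Zfp873 (edgeR adjusted p = 0.67, 0.19, 0.30 and 0.51). By the raw rule 0 genes were called higher with DESeq2, with thinned counts summed, or with other wells matched by total counts.

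The LCE plates alone gave 16 higher genes. Samhd1, which hydrolyses dNTPs, was at 117 ± 26.7 CPM in members and 61.9 ± 6.54 CPM in other wells (SD, n = 4), a log2 difference of 0.91 ± 0.19 (edgeR adjusted p = 0.0032). Gstm1, a glutathione transferase, differed by 0.82 ± 0.18 and Wfdc17 by 0.90 ± 0.24. None of these 3 passed when members were chosen after thinning. Tmem198b, with 17 counts in LCE members, differed by 2.05 ± 0.52 on the LCE plates. The long noncoding Malat1 differed by 0.27 ± 0.04 on the LCE plates (edgeR adjusted p = 1.6e-06) and by 0.18 ± 0.03 after thinning, and -0.03 ± 0.19 over 8 plates. Mitochondrially encoded RNAs were among the 16, with mt-Rnr2 at 0.21 ± 0.03 (edgeR adjusted p = 4.2e-05) and mt-Co1 at 0.15 ± 0.04 (edgeR adjusted p = 0.030) on the log2 scale. After thinning mt-Rnr2 differed by 0.09 and mt-Co1 by 0.05 (edgeR adjusted p = 2.8e-05 and 0.29). The part of the mitochondrial share in the other differences was not tested.

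Of the 3 marker genes of the label only Txnip passed a test. Txnip encodes a protein that binds thioredoxin and restrains glucose uptake. It was at 459, 392, 443 and 549 CPM in members of LCE409, LCE407, LCE408 and LCE410, against 294, 317, 334 and 320 CPM in other wells, without overlap. The log2 difference was 0.50 ± 0.09 on the LCE plates (edgeR adjusted p = 0.00075), 0.44 ± 0.21 over 8 plates (edgeR adjusted p = 0.60) and 0.30 ± 0.07 with membership after thinning (edgeR adjusted p = 0.0057, higher on 7 of 8 plates), and 0.23 ± 0.07 with membership after thinning on the LCE plates (edgeR adjusted p = 0.017).

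Mecom, a transcription factor needed by stem cells, was at 67.3 ± 16.9 CPM in members and 35.5 ± 6.65 CPM in other LCE wells (SD, n = 4). Its log2 difference was 0.89 ± 0.26 on the LCE plates (edgeR adjusted p = 0.090) and 0.38 ± 0.19 after thinning (edgeR adjusted p = 0.39), which on the LCE plates alone was 0.029 ± 0.19 (edgeR adjusted p = 0.98). Procr, the endothelial protein C receptor carried by stem cells, was at 39.4 ± 20.5 CPM in members and 23.6 ± 4.45 CPM in other LCE wells, with a log2 difference of 0.72 ± 0.33 (edgeR adjusted p = 0.50) and 0.38 ± 0.22 after thinning (edgeR adjusted p = 0.50). Neither passed in any of these fits.

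Of the stem cell list no gene was called on the LCE plates. All 16 tested genes had a positive log2 difference (median 0.34, all genes 0.01). After thinning 3 of 15 were called higher, Hlf, Mmrn1 and Ifitm1, and the median was 0.25 against 0.02 for all genes. Hlf encodes a transcription factor found in stem cells. With membership after thinning and raw counts summed, it was at 312 ± 93.1 CPM in members and 257 ± 82.5 CPM in other wells (SD, n = 8 plates). It was higher on 8 of 8, a log2 difference of 0.30 ± 0.07 (edgeR adjusted p = 0.0027). Mmrn1, a secreted multimerin of megakaryocytes and stem cells, differed by 0.81 ± 0.23 (edgeR adjusted p = 0.043) and Ifitm1 by 0.28 ± 0.05 (edgeR adjusted p = 0.00061), both higher on 8 of 8 plates. Without wells that held markers of other cell types Mmrn1 did not pass (edgeR adjusted p = 0.11), while Hlf and Ifitm1 did (0.020 and 0.0033). By the raw rule over 8 plates Hlf, Mmrn1 and Ifitm1 did not pass (edgeR adjusted p = 0.92, 0.49 and 0.99).

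With membership after thinning, 2 lymphoid priming genes passed, Flt3 and Dntt. Flt3, the receptor that marks multipotent and lymphoid-primed progenitors, was at 319, 246, 262 and 331 CPM in members of LCE409, LCE407, LCE408 and LCE410, against 230, 225, 252 and 217 CPM in other wells. On LC187, LC188, LC189 and LC190 it was at 166, 221, 156 and 138 CPM in members, against 120, 141, 142 and 122 CPM in other wells. It was higher on 8 of 8 plates, with a log2 difference of 0.35 ± 0.08 (edgeR adjusted p = 0.0016). Dntt, the terminal transferase of lymphoid cells, differed by 0.28 ± 0.08 (edgeR adjusted p = 0.026, higher on 7 of 8 plates). By the raw rule neither passed. Flt3 was at 0.20 ± 0.21 over 8 plates and 0.39 ± 0.11 on the LCE plates (edgeR adjusted p = 0.88 and 0.069). Dntt was at -0.19 ± 0.22 over 8 plates and 0.05 on the LCE plates (edgeR adjusted p = 0.89 and 0.95), where it was higher on 1 of 4. In all 15 of 16 tested lymphoid genes were positive with a median of 0.21. Markers of other cell types moved with membership after thinning as well. Of the B-lineage list 3 of 6 tested genes were called lower, Vpreb1 (-1.08 ± 0.30), Vpreb3 (-1.10 ± 0.28) and Igll1 (-1.46 ± 0.34), and the median of the list was -0.92. Jchain, of plasma cells, was at -0.98 ± 0.21, and at 0.37 (edgeR adjusted p = 0.65) without wells of other cell types. On the dendritic cell list, Flt3 and Tcf4 (0.26 ± 0.07) were called higher of 3 tested. Without wells of other cell types Flt3 differed by 0.32 ± 0.08 (edgeR adjusted p = 0.0082) and Dntt by 0.34 (edgeR adjusted p = 0.0075), and Tcf4 did not pass (edgeR adjusted p = 0.063). Vpreb1, Vpreb3 and Igll1 were not tested there. By the raw rule over 8 plates Vpreb1 and Vpreb3 were at -0.34 and 0.19 and did not pass (edgeR adjusted p = 0.89 and 0.93), and Igll1 was not tested.

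Of the remaining lists, few genes passed. In the Myc and growth list 13 of 14 were negative over 8 plates, 1 of 14 was called lower on the LCE plates and 2 after thinning, and the median was -0.54 over 8 plates and -0.10 after thinning. Ribosome biogenesis genes had 0 called of 18. Mpo, the myeloperoxidase of granulocyte precursors, was lower after thinning (-0.23 ± 0.06, edgeR adjusted p = 0.010), although it was higher on 2 of 8 plates. On the LC plates it was at 1033 ± 263 CPM in members and 1315 ± 210 CPM in other wells, lower on 4 of 4. On the LCE plates the levels were close, at 204 ± 86.6 and 207 ± 55.4 CPM, lower on 2 of 4 (SD, n = 4 each). Of the FOXO target and quiescence list, 14 tested on the LCE plates, 1 was called higher, Txnip. Of the interferon list 8 of 9 tested genes were positive on the LCE plates (median 0.45), and 6 of 7 after thinning (median 0.27). In both fits 0 of them were called. Ccnd2, a D-type cyclin of G1, was higher after thinning (0.22 ± 0.05, edgeR adjusted p = 0.010) and -0.21 ± 0.22 over 8 plates by the raw rule. Kpna2, an importin, was lower after thinning (-1.67 ± 0.20).

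**Figure D3:**
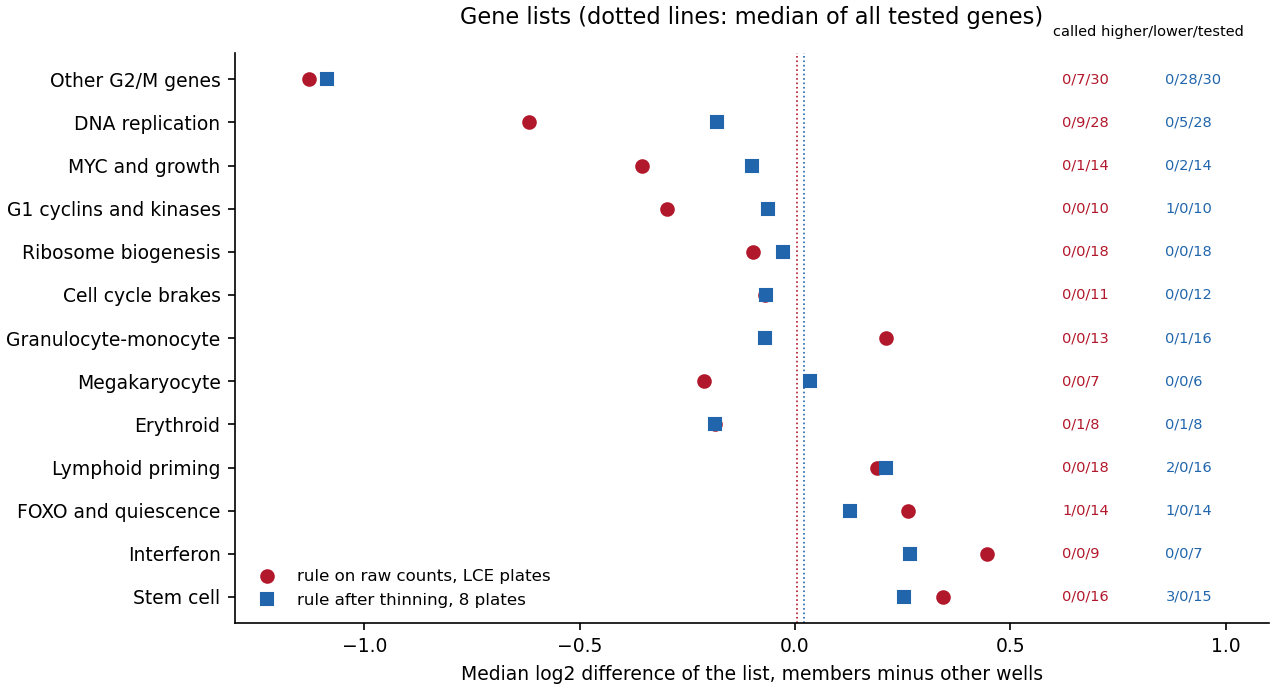
Median log2 difference of members minus other wells for 13 gene lists, 1 point per list for the raw rule on the LCE plates and 1 for the rule after thinning on 8 plates, with genes called higher, called lower and tested beside each. Among the points of the LCE plates, the medians of the other G2 and M phase genes (-1.13) and S phase genes (labelled DNA replication, -0.62) lie lowest. That of the interferon list lies highest at 0.45, and that of the stem cell list is 0.34, with 0 genes of either list called.

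Between wells with 0, 1, 2 to 3 and 4 or more of the 8 genes detected after thinning, levels differed by class. The LCE classes held 380, 490, 376 and 78 wells. Hist1h2ap was at 399, 698, 2783 and 5381 CPM in these classes on the LCE plates. Txnip was at 364, 372, 288 and 165 CPM in the same order, so the first pair of classes did not differ beyond the spread between plates. Tuba1b was at 633, 760, 1094 and 1591 CPM. Flt3 was at 289, 242, 230 and 191 CPM, and Dntt at 331, 268, 314 and 365 CPM, without one direction. On the LC plates, with 120, 306, 692 and 243 wells, Hist1h2ap was at 762, 1072, 1882 and 2724 CPM and Flt3 at 170, 150, 132 and 111 CPM.

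**Figure D4:**
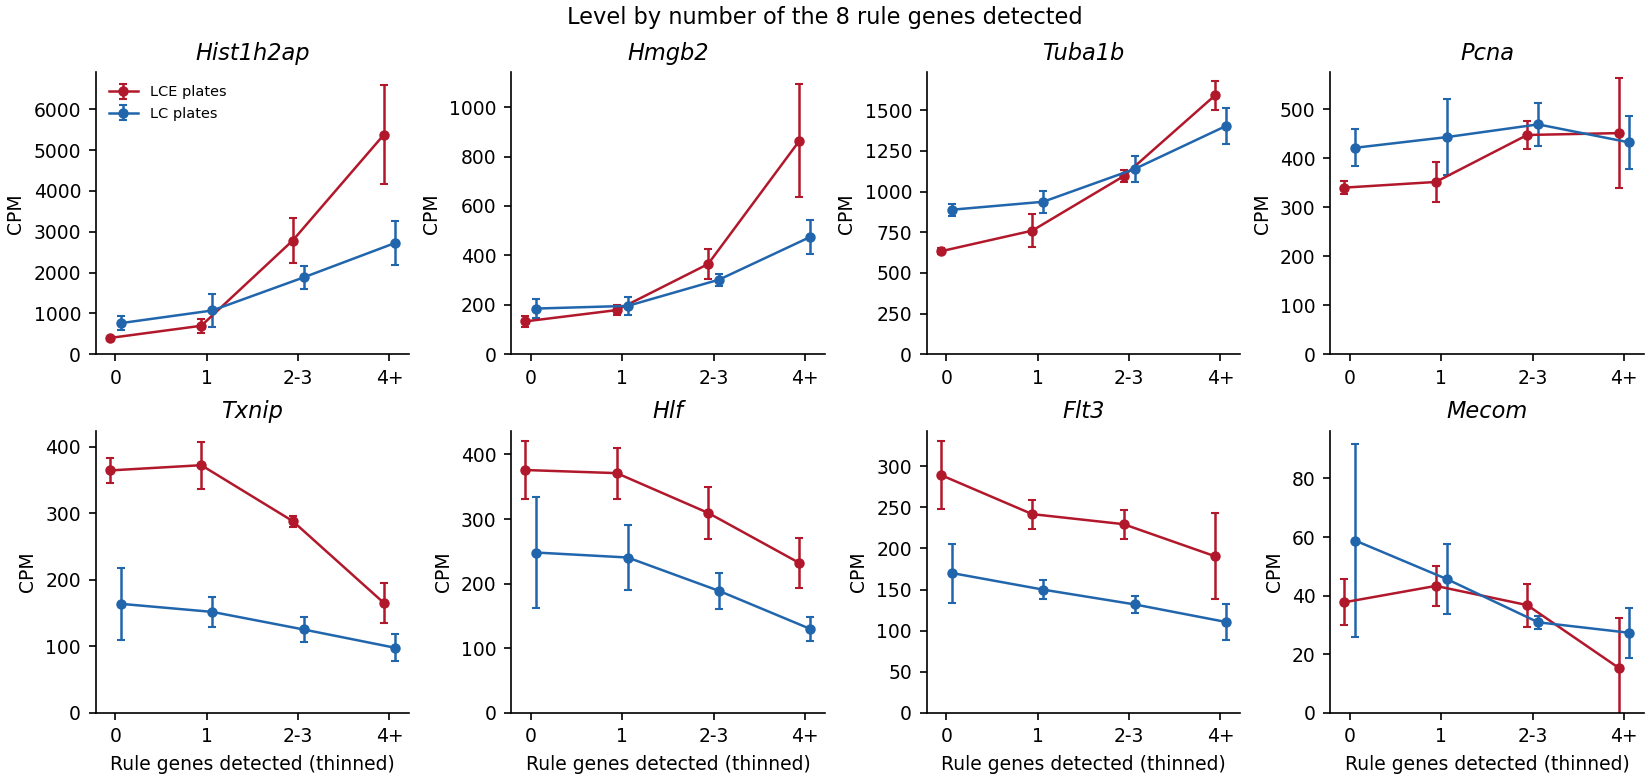
Mean CPM over plates of 8 genes by the number of rule genes detected after thinning, from 0 to 4 or more, with SD over plates, for the LCE and LC plates. On the LCE plates Hist1h2ap is at 399 CPM in the lowest class and 5381 CPM in the highest, and Flt3 at 289 and 191 CPM.

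The sorter's values were compared as ranks within the plate, on a scale of 0 to 100, for 7 channels recorded on all plates. By raw counts none of the 7 passed (adjusted p = 0.97 over the 7 channels, exact sign-flip test over n = 8 plates), and the LC plates contribute 1 or 2 members each. On the LCE plates members had lower forward scatter, which follows cell size. The median forward scatter height was 94400, 97856, 98048 and 94208 in members of LCE409, LCE407, LCE408 and LCE410, against 99072, 99392, 102000 and 99808 in other wells. Members ranked lower on 4 of 4 plates, with a mean difference of -13.9 ± 2.13 rank points (SD) and the smallest exact p that 4 plates allow, 0.12. Side scatter differed by -10.5 ± 2.12 and CD48, a protein absent from long-term stem cells, by -10.5 ± 5.60 rank points, each lower on 4 of 4 plates. Once other wells were matched to members by total counts, the forward scatter difference was -1.19 (lower on 2 of 4 plates), that of side scatter 3.22 and that of CD48 5.02 rank points.

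With membership after thinning, 3 of the 7 channels passed. Dach1-GFP ranked lower in members on 8 of 8 plates, with a difference of -6.28 ± 3.88 rank points (SD, n = 8, exact sign-flip p = 0.0078, the smallest that 8 plates can give, adjusted p = 0.027). cKit was lower on 8 of 8 plates, with -7.62 ± 4.09 (exact p = 0.0078, n = 8, adjusted p = 0.027), and CD11b on 7 of 8, with -5.06 ± 3.93 (exact p = 0.016, n = 8, adjusted p = 0.036). CD11b did not pass without wells of other cell types (adjusted p = 0.073, exact sign-flip test) or with medians of ranks (adjusted p = 0.055, exact), where Dach1-GFP and cKit kept 0.027. CD135, the protein encoded by Flt3, differed by 1.11 ± 4.34 (exact p = 0.48, n = 8). With other wells matched by total counts Dach1-GFP was still lower on 8 of 8 plates (-5.2 points, adjusted p = 0.055) and none of the 7 passed. With any plate other than LCE409 left out none of the 7 passed either, where 7 plates allow no exact p under 0.016.

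**Figure D5:**
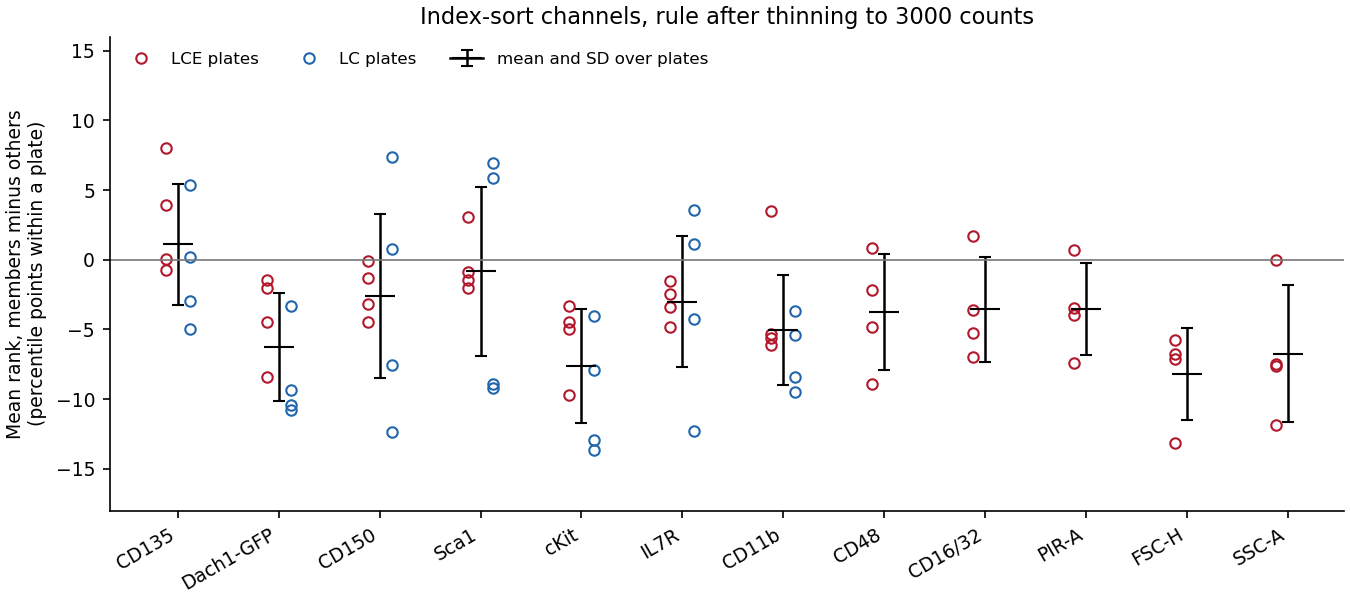
Difference in mean rank (percentile points within a plate), members by the rule after thinning minus other wells, for each sorter channel. Open circles are plates, and bars give the mean and SD over plates. Dach1-GFP and cKit lie below 0 on all 8 plates, and forward scatter height (FSC-H) on the 4 LCE plates that recorded it. Wells are not matched by total counts here.

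After thinning, Txnip was detected in 70.9% of the 148 LCE members, Hlf in 62.2%, Flt3 in 55.4%, Dntt in 50.0%, Mpo in 31.1%, Mecom in 15.5% and Procr in 10.1%. In the 1176 other LCE wells the shares were 60.5%, 59.9%, 47.5%, 48.0%, 35.5%, 10.1% and 6.97% in the same order. Those of Hlf, Dntt and Mpo were thus close between members and other wells. In 71 LCE wells with B-lineage markers the median was 7341 counts, against 5184 in members. There Dntt was detected in 70.4%, Txnip in 46.5%, Hlf in 45.1%, Mpo in 36.6%, Flt3 in 33.8%, Mecom in 5.63% and Procr in 2.82%. The share with Mpo in members was below those of B-lineage wells and of other LCE wells. The leading member well held 19 Mpo counts after thinning, and the part of background was not tested. Dntt and Mecom were detected together in 8 members, Dntt alone in 66, Mecom alone in 15 and neither in 59.

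Whether the genes that go with membership differ between cells above and below the plate median of CD135 was tested as an interaction. Of 11124 genes 0 passed by edgeR (0%), with 591 at an unadjusted p under 0.05, and DESeq2 called 0. With membership after thinning Igkc (log2 difference 1.53) and Jchain (2.24), both of antibody-producing cells, passed.

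Few members held markers of other cell types. At least 3 genes of a B-lineage, plasma, T or NK, macrophage, neutrophil or stroma list were detected in 6 of 154 members (3.90%), against 8.57% of other wells, and all 6 members were of the B-lineage list. All 30 wells with neutrophil markers and 37 of 44 with macrophage markers were on LC plates, which held 6 of the 154 members. Members also had fewer counts (median 5191.5, against 9272 in other wells). The part of plate set and depth in these shares was not tested. Of 30 LC wells with neutrophil markers 90.0% held at least 1 count of the 8 rule genes after thinning, against 91.2% of all LC wells. Leaving out all such wells left 48 genes called, 43 of them among the 59.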

How the data were processed

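Single sorted marrow cells of 8 plates were analysed. The counts were deposited by the authors as whole numbers per gene and well. The build in the submitters' processing notes is GRCh38, which is human, although every gene identifier is a mouse Ensembl one. Aligner, counting software, strand setting and the handling of molecular tags were not given in the sources used here. No gene exceeded 1532 counts in a kept well, while 6-base tags have 4096 forms. Sorter intensity was deposited as linear values, some of them below 0. Forward scatter height was used in place of its area, whose column holds text. Gene symbols matched 27249 of 27318 identifiers.

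Kept wells had at least 3000 counts and 500 genes, spike-ins left out, 327 to 341 per plate, with 2078283 to 5196601 counts per plate. No doublet caller was run, since single cells were sorted into the wells. 23 kept wells had no sort record. The plate is the replicate. For each plate, 1 sum over members and 1 over other wells entered edgeR 4.0.16 in R 4.3.3, with a plate term in the model, TMM factors, the filterByExpr filter and the quasi-likelihood test. Log2 differences are given ± SE, with p-values adjusted by Benjamini-Hochberg across every gene tested. Both sums come from the same plate, which is the pairing. Sorter ranks were tested by an exact two-sided sign-flip permutation over plates. Alternatives included DESeq2 1.42.0, other scalings, depth matching, thinning and leaving out plates. Thinning was a single seeded draw without replacement. The edgeR and sign-flip tests were tested on simulated data.

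Named genes were the 8 rule genes, the 3 markers, Dach1 and the genes of sorted proteins, up to 12 called genes each way with the same sign on at least 7 of 8 plates and 20 CPM, and up to 4 genes per list. Histone genes, the genes called on the LCE plates and those called after thinning were named after their values were seen. The members and lists were chosen with earlier results of these data known. 1 gene called on the LCE plates is not reported here. Intervals cover counting error only. Near-identical genes could share counts.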

Additional observations from a re-analysis of the deposited data

Results flagged for a closer look

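In 60 groups of plates tested for a plate that stands apart, 2 did, and chance flags about 1 in 20 groups. The CD11b rank difference by raw counts was 47.1 on replicate 1, where a single well is a member, against -35.8 to -0.875 on the other plates. The same quantity with membership after thinning was 3.53 on replicate 5, against -9.48 to -3.66 on the other plates.

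With membership after thinning, the log2 difference of members minus other wells differed between the LCE and the LC plates for 14 of 9939 genes (0.141%, edgeR interaction, adjusted p under 0.05), all lower on the LCE plates. Among H2A genes the difference LCE minus LC was -1.06 for Hist1h2ap, -1.37 for Hist1h2ag, -1.41 for Hist1h2an, -1.32 for Hist1h2ah, -1.68 for Hist1h2aj, -1.41 for Hist1h2ao, -1.09 for Hist1h2ac, -1.14 for Hist1h2ae, -1.76 for Hist1h2af and -1.19 for Hist1h2ak. Gm11336 differed by -1.28 and Gm13237 by -0.79. Clip1, which binds microtubule ends, differed by -1.23, with -0.11 on the LCE and 1.1 on the LC plates, and Bahcc1 by -2.17, with -0.87 on the LCE and 1.27 on the LC plates. The H2A genes may share counts, so these are not independent results. Depth per well differed between the sets too (median 6369.5 counts on the LCE and 12461 on the LC plates), and its part was not tested.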

How the results depend on the processing

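The plate is the block that pairs members with other wells, and without this replicate block 72 genes passed, against 59 with it. The count of genes called was 16 by the raw rule with thinned counts summed, and 292 with the rule after thinning and raw counts summed. With the rule after thinning and thinned counts summed it was 68 (7100 genes tested). By the raw rule it was 3 with other wells matched by total counts (893 genes tested), 33 on the LC plates alone, 96 on the LCE plates alone and 33 to 54 when each plate was left out in turn. Leaving out LCE407, LCE408 or LCE410 gave 33, 36 and 35 calls. DESeq2 called 44. With the rule after thinning it was 55 on the LC plates alone and 205 to 336 with each plate left out. By CD135 side 0 genes passed, 2 with the rule after thinning and 0 to 1 with each plate left out, and 0 without the replicate block. The 7 channels gave 0 calls by raw counts, 3 with the rule after thinning, 0 with other wells matched by total counts under that rule, and 0 to 3 with each plate left out, where the 3 needed replicate 5 to be absent. The share of members was 18.6% after thinning and 3.64% in wells with at least 5000 counts. The cause of these changes was not tested.

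Over the alternatives, 34 called genes gave 726 values, of which 725 kept the direction and 556 passed. The exception was Iigp1 on the LC plates alone (-0.0019). In that fit, with 6 members, the median of all genes was -1.37, so signs are read against that shift and not as changes of direction. By the same shift, a negative sign there says little about a kept direction of genes called lower. Most alternatives also share wells with one another, so the 726 values are not independent. Iigp1, Txnip and Mecom lay above that median, at 18.9, 226.4 and 37.7 CPM in LC members and 10.3, 126.9 and 35.1 CPM in other LC wells. For Iigp1 and Mecom these values rest on very few counts. Of the 6 LC members 4 held no Mecom count. Txnip was -0.22, Mecom -0.84, Procr -8.37, Dach1 0.49, Flt3 -1.45, Kit -0.46, Itgam -0.75, Samhd1 -2.62 and Gstm1 -1.94 on the LC plates alone, and with the rule after thinning Mcm3 was 0.10 and Hba-a2 0.14 on the LC plates. Jchain was 0.37 under that rule without wells of other cell types. On the LCE plates alone Ccnd2 was 0.10, Ifitm1 0.21, Bcl11a 0.17, Mpo 0.21, Car2 0.11, Malat1 0.27, mt-Rnr2 0.21, mt-Co1 0.15 and Rps9 0.18. With the rule after thinning and raw counts summed, Cd48 was 0.015, Ccnd2 0.22, Ifitm1 0.28, Ncl 0.0045, Bcl11a 0.20, Malat1 0.18, mt-Rnr2 0.093, mt-Co1 0.052 and Rps9 0.17, and with thinned counts summed Ccnd2 was 0.25, Ifitm1 0.26, Malat1 0.13, mt-Rnr2 0.048, mt-Co1 0.052 and Rps9 0.12. With library sizes alone Ccnd2 was 0.047, Ifitm1 0.21, Bcl11a 0.13, Malat1 0.29, mt-Rnr2 0.17, mt-Co1 0.14 and Rps9 0.21. With other wells matched by total counts Npm1 was 0.0073, Mpo 0.12, mt-Co1 0.023 and Rps9 0.14. DESeq2 gave Flt3 -0.094, Kit -0.16 and Gstm1 -0.030, and with no filter on low counts Flt3 was -0.065 and Kit -0.10. With each plate left out in turn Kit lay between -0.076 (without replicate 2) and 0.22, and Gstm1 between -0.028 (without replicate 7) and 0.57. Among sorter channels, cKit was -7.62 rank points with the rule after thinning. With other wells matched by total counts CD48 was 5.02 and side scatter 3.22, and with the rule after thinning as well CD48 was 4.18. Wells with a sort record alone, the fits of the rule after thinning other than those listed above, and the difference between sets were chosen after seeing the data.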
